A study of Mus musculus with 24 samples.

Results

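The clustered protocadherins were examined in the hippocampus of C57BL/6 mice across age and sex. Of the 25697 probes on the array, 51 carried a gene symbol starting with Pcdha, Pcdhb, Pcdhga, Pcdhgb or Pcdhgc, and these stood for 50 genes: 8 of the alpha cluster, 22 of the beta cluster and 20 of the gamma cluster. The RefSeq gene table (GRCm38.p6) lists 14, 22 and 22 genes for the same clusters, so that every beta gene had a probe. A probe was kept where its normalized intensity exceeded 16 in all 4 arrays of at least 1 group. This kept 13 of the 51 protocadherin probes, 2 of alpha, 9 of beta and 2 of gamma, and 11901 of all probes. Intensities below 16 were set to 16 before taking log2.

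Male and female mice of the C57BL/6 strain (NCr substrain, from the National Institute on Aging colony) were compared at ages of 3, 12 and 24 months, called young, adult and old. Females made up the groups FY, FA and FO and males the groups MY, MA and MO, in order of age, with 4 mice and 1 array per mouse in each of the 6. All females had daily vaginal lavage for some weeks and were killed in diestrus, and the old females were past cycling. The males were killed after a short acclimation, and the paper describes no lavage for them. Sex and this handling can therefore not be told apart here. The dissected tissue held the CA1 to CA3 fields and the dentate gyrus, with all of their cell types.

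Clustered protocadherins are cell surface adhesion proteins of the cadherin superfamily, encoded by alpha, beta and gamma genes that lie in tandem on mouse chromosome 18. Each neuron transcribes its own combination of isoforms, and the isoforms bind in trans to identical ones on other membranes, which serves in the recognition of self and in the spacing of dendrites and axons. In the alpha and gamma clusters each variable first exon is spliced to constant exons at the 3′ end of the cluster. The beta genes are single-exon genes with a promoter each and no constant exon. Choice among promoters depends on CTCF and cohesin, which loop promoters to distant enhancers, and on DNA methylation.

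The gene annotation shows the same difference. The 22 beta genes had spans of 2340 to 5271 bases and 0 of them overlapped another beta gene, whereas all 8 alpha genes and all 20 gamma genes with a probe overlapped others of their cluster, and their ends lay within 1240 and 1384 bases of each other. Where in its gene a probe lies was not known here. An alpha or gamma probe may therefore stand for 1 isoform or for the shared 3′ end, and binding of a probe to transcripts of related genes of its cluster was not tested. Pcdha6 had 2 probes, with mean intensities of 556.2 and -1.14, of which only the brighter was kept.

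All 24 arrays had the same mean intensity, and between 11775 and 12437 probes per array were above 16. Arrays correlated with each other at r = 0.952 to 0.994. Xist was above every male array in 12 of 12 female arrays, and Eif2s3y was above every female array in 12 of 12 male arrays. MO replicate 1 and MO replicate 3 stood farthest from their group mean, with root mean square deviations of 0.356 and 0.335 on the log2 scale, against 0.141 to 0.272 in the other 22 arrays. Markers of the hippocampal excitatory cells were kept for 4 of 5 genes (Prox1 of dentate granule cells and Wfs1 of CA1 among them), and pan-neuronal markers for 5 of 8, with the probes of Snap25, Tubb3 and Nefl below the limit. Nothing in the labels ties arrays to a shared slide.

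Between young and old age 3 beta genes rose, and limma called no kept probe of any cluster lower in any comparison. Averaged over the sexes, Pcdhb3 was 1.82-fold higher in old than in young mice, Pcdhb7 1.45-fold and Pcdhb12 1.39-fold. Pcdhb3 had risen by adult age in the mean of the sexes. Pcdhb7 passed the test between adult and old mice, but at the edge of the threshold, and most fits with 1 adult or old array left out lost that call. Differences between the steps were not tested. Neither kept alpha probe and neither kept gamma probe passed the test. The tissue was measured whole, so that fewer or more cells of a type and less or more RNA per cell cannot be told apart. Like the other beta isoforms, the products of these genes are single-pass membrane proteins with extracellular cadherin repeats.

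Pcdhb3 was the brightest of the kept beta probes. Its normalized intensities were 101.9, 118.6, 120.7 and 126.8 in FY, 148.4, 152.2, 175.0 and 191.1 in FA, and 210.6, 189.5, 239.5 and 212.9 in FO. In males they were 89.2, 107.4, 94.0 and 97.6 in MY, 137.8, 165.8, 131.0 and 148.8 in MA, and 142.4, 197.3, 198.3 and 170.1 in MO. In both sexes every adult and every old mouse was above every young mouse, while adult and old mice overlapped. The highest young female, at 126.8, was also below the lowest adult male, at 131.0, so that all 8 young mice lay below all 16 older ones.

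Pcdhb7 had close means in young and adult females (88.8 and 93.0) and higher ones in the old mice of both sexes. Its intensities were 79.45, 94.78, 99.28 and 81.47 in FY, 101.8, 97.52, 96.23 and 76.32 in FA, and 136.8, 118.6, 125.7 and 115.4 in FO. The male arrays gave 77.32, 94.31, 75.73 and 92.75 in MY, 94.98, 104.8, 94.97 and 106.4 in MA, and 157.8, 128.0, 110.2 and 118.9 in MO. All 8 old mice were above all 8 adult and all 8 young mice. Young and adult females overlapped, and the MA mice lay just above the MY mice, by less than 1 intensity unit at the nearest pair (94.97 against 94.31).

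By group mean, Pcdhb12 was already higher at adult age in males and only at old age in females. Limma did not call its young to adult change different between the sexes (limma adjusted p = 0.535). Female intensities were 60.08, 62.79, 67.39 and 63.02 in FY, 64.86, 59.03, 73.6 and 55.75 in FA, and 82.42, 79.13, 90.49 and 64.07 in FO. Male intensities were 61.06, 62.47, 63.94 and 60.13 in MY, 90.08, 80.28, 78.08 and 64.77 in MA, and 87.41, 100.0, 99.75 and 100.1 in MO. The 4 MY values were close together and lay below every MA and every MO value. In females 3 of 4 FO mice were above all FY and FA mice, and the remaining FO mouse, at 64.07, lay inside their range.

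**Figure D1:**
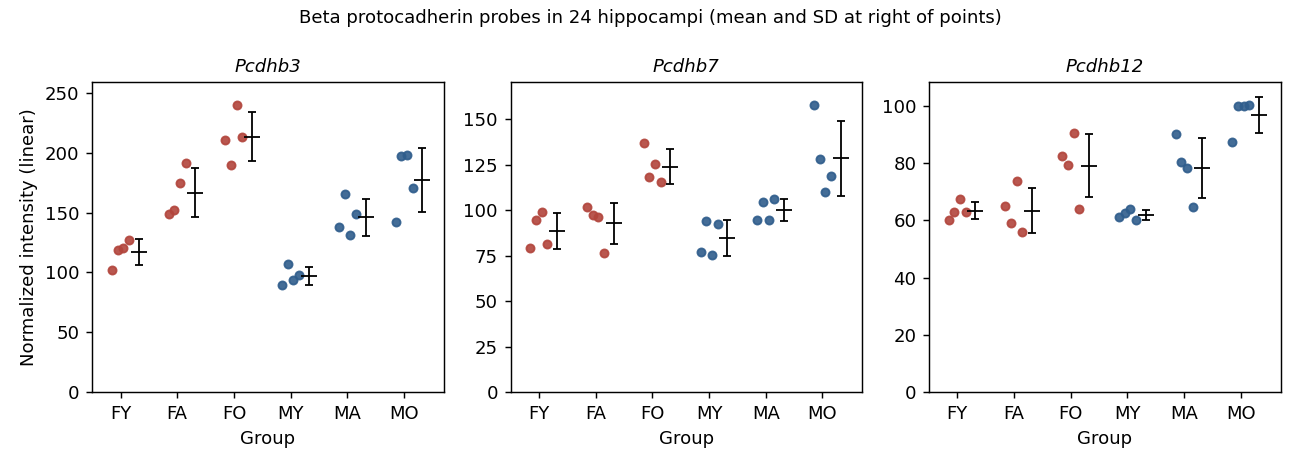
Normalized intensity (linear axis from 0) of the Pcdhb3, Pcdhb7 and Pcdhb12 probes in each of the 24 mice, females in red and males in blue, with the group mean and SD beside the points (n = 4 per group). All Pcdhb3 points of FY and MY sit at or below 126.8 and all others at or above 131.0, whereas for Pcdhb7 only the FO and MO points stand above the rest.

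The change from young to old age was tested in each sex. Between FO and FY, limma (all 24 arrays in 1 model, Benjamini-Hochberg adjustment over 11901 probes) called 0.714% of all kept probes and 1 of the 13 protocadherin probes. Pcdhb3 was 117.0 ± 10.7 in FY and 213.1 ± 20.5 in FO (SD, n = 4), the 95% interval of its log2 fold change was 0.63 to 1.11, and it ranked 13 of 11901 by p. Pcdhb7 was 88.8 ± 9.78 and 124.1 ± 9.45, a log2 fold change of 0.49 with a standard error of 0.12, and limma's adjusted p of 0.0628 missed the threshold of 0.05. Without FA replicate 4, MO replicate 1 or MO replicate 3 the number of protocadherin probes called between FO and FY was 2. Over all kept probes 86, 93 and 91 were then called, beside 85 in the main fit. Pcdhb12 differed by 0.31 (standard error 0.12, limma adjusted p = 0.493). FO and FY did not overlap for Pcdhb3 and Pcdhb7, with FO higher, as for 3.08% of all kept probes, and FO was wholly below FY for 0 of the 13, as for 2.29%.

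Between MO and MY, limma called 0.101% of kept probes, 12 in all, of which 2 were protocadherins. Pcdhb12 rose from 61.9 ± 1.67 to 96.8 ± 6.27, a log2 fold change of 0.64 (standard error 0.12, 95% interval 0.40 to 0.88, limma adjusted p = 0.0182). Pcdhb3, at 97.0 ± 7.70 and 177.0 ± 26.5, was the other (interval of the log2 fold change 0.62 to 1.10), and ranked 3 of 11901 by p. Pcdhb7 was 85.0 ± 9.86 in MY and 128.7 ± 20.7 in MO, with a log2 fold change of 0.59 and an adjusted p of 0.0508 by limma. MO was wholly above MY for 6 protocadherin probes (Pcdha6, Pcdhb3, Pcdhb7, Pcdhb12, Pcdhb14 and Pcdhb19), as for 1.66% of all kept probes, and wholly below it for 0, as for 4.13%. The Pcdhb12 call depended on the arrays included: with each MY array left out in turn, and without MO replicate 3 or MO replicate 4, limma's adjusted p lay above 0.05, reaching 0.0655. Fitted on the MY and MO arrays alone, limma called 1 of all kept probes, and neither Pcdhb3 (limma adjusted p = 0.14) nor Pcdhb12 (0.163).

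With the sexes averaged, limma called 1.27% of kept probes between old and young mice, 151 in all, and 3 of the 13 protocadherin probes, all higher in old mice. The log2 fold change of Pcdhb3 was 0.86 (standard error 0.08, 95% interval 0.69 to 1.03, limma adjusted p = 9.92e-07) and ranked 4 of 11901 by p. Pcdhb7 changed by 0.54 (standard error 0.09, interval 0.36 to 0.72, limma adjusted p = 0.000649) and Pcdhb12 by 0.48 (standard error 0.08, interval 0.31 to 0.65, limma adjusted p = 0.0016). Pcdhb14 at 0.40 and Pcdhb19 at 0.43 came next, with adjusted p of 0.068 and 0.0921 in limma. The old mice were wholly above the young for Pcdhb3 and Pcdhb7, as for 0.328% of kept probes.

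The other 6 kept beta probes lay between -0.02 and 0.43, and none of them passed the test. The 9 beta probes had a median log2 fold change of 0.40 between old and young mice, from -0.02 to 0.86, beside a median of -0.02 over all kept probes. The fold change was positive in both sexes for 7 of 9 beta probes and 0 of 2 alpha probes, beside 23.2% of all kept probes. Both gamma probes passed the filter through FO alone, which favours a positive female change, so they are left out of this count. Pcdhb20 and Pcdhb22 stood at -0.01 and -0.02, with 95% intervals of -0.35 to 0.34 and -0.20 to 0.16. For Pcdhb22 the interval therefore leaves out changes of the size measured for Pcdhb3, Pcdhb7 and Pcdhb12, and for Pcdhb20 it leaves out those of the same 3 genes as well, though by a smaller margin for Pcdhb12 (0.48). Pcdhb10 and Pcdhb16, at 0.19 and 0.33, had intervals of -0.13 to 0.52 and -0.10 to 0.76, which hold both no change and a change as large as that of Pcdhb12.

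**Figure D2:**
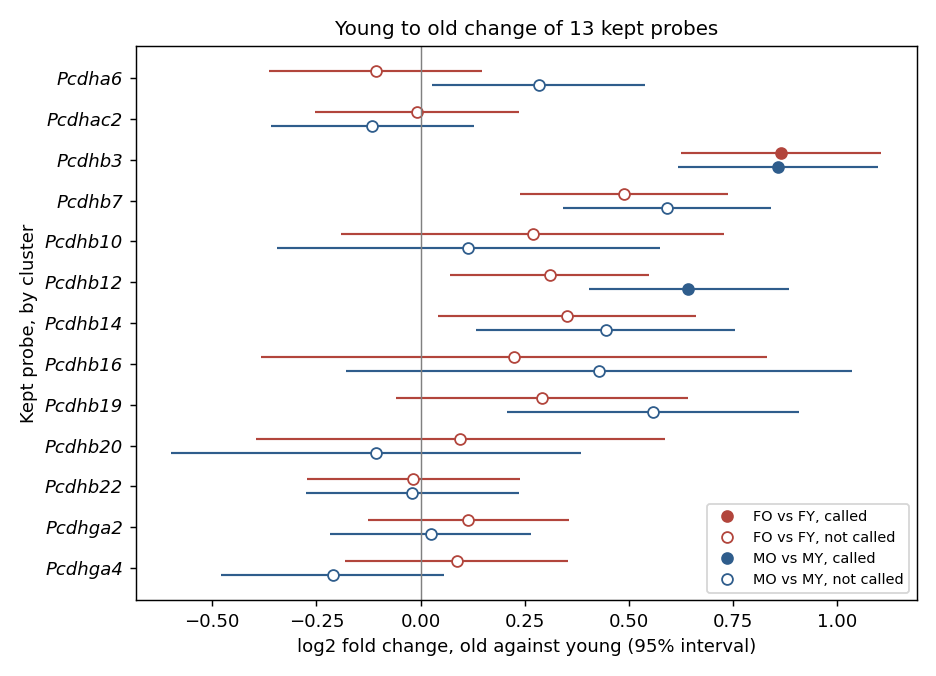
Log2 fold change from young to old age with its 95% interval (horizontal axis) for the 13 kept protocadherin probes (vertical axis), females in red and males in blue, with filled points for limma adjusted p under 0.05. Pcdhb3 lies at 0.86 in both sexes, Pcdhb7 at 0.49 in females and 0.59 in males, and the alpha and gamma probes lie between -0.21 and 0.28.

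The rise of Pcdhb3 was divided between the adult and the old step, with the test passed at the first. Between adult and young mice, averaged over the sexes, limma called 0.0084% of kept probes, which is 1 probe of 11901, and that probe was Pcdhb3, with a log2 fold change of 0.55 (standard error 0.08, interval 0.38 to 0.72, limma adjusted p = 0.0107). From adult to old age it changed by 0.32 (interval 0.15 to 0.49, limma adjusted p = 0.151), and without MO replicate 1 this step passed as well (0.37, limma adjusted p = 0.0356). Adult mice were wholly above young mice for Pcdhb3 alone of the protocadherins, as for 0.0252% of kept probes. Within each sex the adult step did not pass: limma called 0 of 11901 probes (0%) between FA and FY and 0 between MA and MY, where 11% and 2.07% had an unadjusted p under 0.05, among them 2 and 4 of the 13 protocadherin probes. Pcdhb3 ranked 5 by p in females (log2 fold change 0.51, limma adjusted p = 0.32) and 1 in males (0.59, limma adjusted p = 0.511). FA was wholly above FY for Pcdhb3, as for 2.57% of kept probes, and MA wholly above MY for Pcdhb3, Pcdhb7, Pcdhb12 and Pcdhb14, as for 0.992%.

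In the mean of the sexes, Pcdhb7 took most of its change between adult and old age. Its log2 fold change was 0.15 from young to adult mice (interval -0.02 to 0.33) and 0.39 from adult to old mice (interval 0.21 to 0.56). In females these steps were 0.065 and 0.423, whereas in males they were closer in size, at 0.244 and 0.349. The old against adult comparison called 39 of 11901 probes (0.328%), all higher in old mice, and Pcdhb7 was the 1 protocadherin among them (limma adjusted p = 0.0488). That call stood at the edge of the threshold and was lost in 14 of the 16 fits that left out 1 adult or old array (all except FA replicate 1 and MO replicate 3), where limma's adjusted p ranged from 0.0227 to 0.141. Pcdhb12 changed by 0.32 between adult and old mice (interval 0.15 to 0.49, limma adjusted p = 0.149) and by 0.16 between young and adult mice. The difference between the steps was tested for neither gene. Within the sexes, 0 protocadherin probes were called between FO and FA (0.361% of kept probes) or between MO and MA (0 of 11901), with 4 and 3 of the 13 at an unadjusted p under 0.05, as 5.27% and 5.5% of kept probes were. FO was wholly above FA for Pcdhb7, as for 3.9% of kept probes, and MO wholly above MA for Pcdhb7, as for 0.706%. The 8 old mice were wholly above the 8 adult mice for Pcdhb7, as for 0.0924%.

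The test of the study's methods, an analysis of variance by age and sex with a post hoc comparison and a fold of at least 1.2 but no adjustment across probes, named more beta genes and no alpha or gamma gene. It called 3 protocadherin probes between FO and FY (Pcdhb3, Pcdhb7 and Pcdhb12, where it called 1.72% of all kept probes), 1 between FA and FY (Pcdhb3, 1.02%) and 3 between FO and FA (Pcdhb3, Pcdhb7 and Pcdhb12, 1.25%). In males it called 5 between MO and MY (Pcdhb14 and Pcdhb19 besides those 3, 2.13%), 3 between MA and MY (Pcdhb3, Pcdhb12 and Pcdhb14, 0.311%) and 2 between MO and MA (Pcdhb7 and Pcdhb12, 0.781%). All of these were higher in the older group. Between the sexes it called Pcdhb3 higher in FY than in MY (0.714%) and in FO than in MO (2.48%), and Pcdhb12 lower in FA than in MA (0.664%) and in FO than in MO.

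Along the beta cluster the kept probes were interspersed with unkept ones. In genome order, the kept genes were Pcdhb3, Pcdhb7, Pcdhb10, Pcdhb12, Pcdhb14, Pcdhb16, Pcdhb19, Pcdhb20 and Pcdhb22. The direct neighbours of Pcdhb3, Pcdhb7 and Pcdhb12 were all unkept. Whether genes next to them changed as well could therefore not be seen. Pcdhb19 and Pcdhb20 were the only kept pair that were direct neighbours, with log2 fold changes between old and young mice of 0.43 (interval 0.18 to 0.67) and -0.01 (interval -0.35 to 0.34). These intervals overlap, neither gene was called, and the difference between them was not tested.

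**Figure D3:**
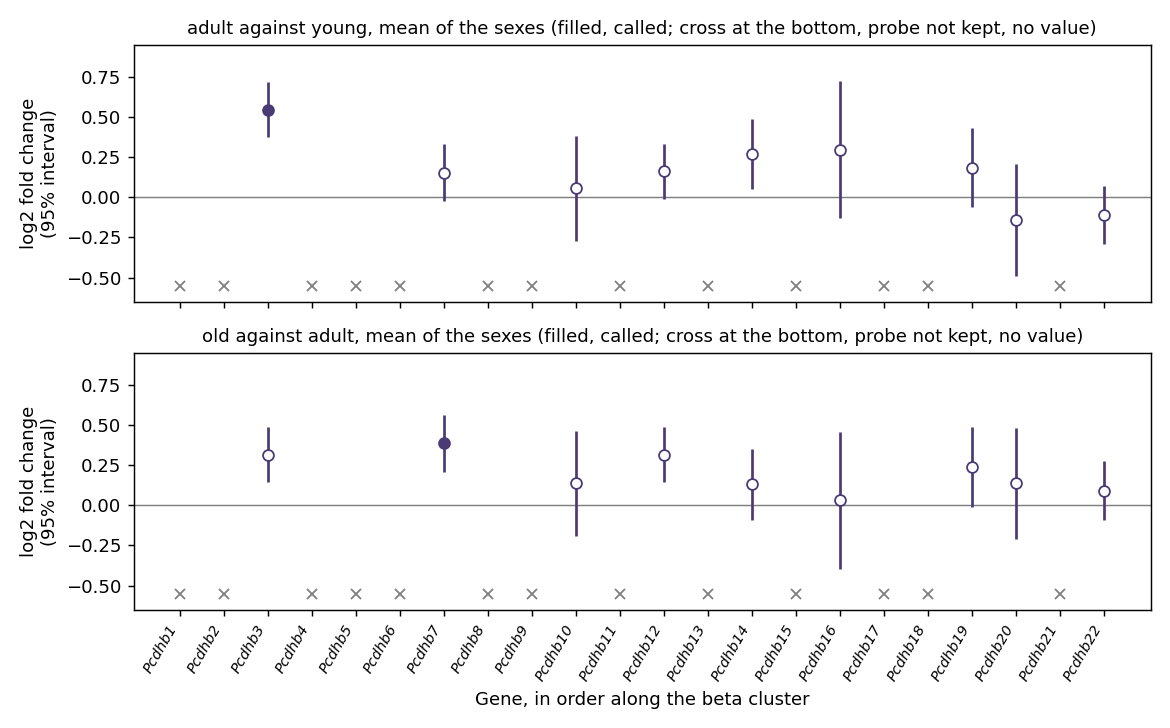
Log2 fold change with its 95% interval (vertical axis), mean of the sexes, for the beta genes in their order along the cluster (horizontal axis), from young to adult in the upper panel and from adult to old in the lower panel; crosses mark the 13 genes whose probe was not kept. Filled points passed limma at an adjusted p under 0.05: Pcdhb3 (0.55) in the upper panel and Pcdhb7 (0.39) in the lower.

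The young to old change was then compared between the sexes. Limma called 0 of 11901 probes for the difference between the female and the male change, where 5.87% had an unadjusted p under 0.05, among them 1 of the 13 protocadherin probes. For Pcdhb3 the difference was 0.01 on the log2 scale (interval -0.33 to 0.35), so that a change in one sex larger by more than 0.35 lay outside the interval. For Pcdhb7 it was -0.11 (interval -0.46 to 0.25). For Pcdhb12 it was -0.33, with the larger change in males (interval -0.67 to 0.005, limma adjusted p = 0.843), and a difference as large as the male change itself is within that interval. The change from young to adult age likewise gave 0 of 11901 probes that differed between the sexes, with 9.39% at an unadjusted p under 0.05, 2 of the 13 protocadherin probes among them. For Pcdhb12 the difference was -0.34 (interval -0.68 to 0.002, limma adjusted p = 0.535). It was -0.48 for Pcdhb14 (interval -0.92 to -0.05, limma adjusted p = 0.484). The mean of Pcdhb14 was 34.05 ± 2.49 in MY and 48.67 ± 6.02 in MA, but 43.23 ± 10.7 in FY and 43.35 ± 5.87 in FA.

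No protocadherin probe was called between females and males at any age or in the mean of the ages, comparisons in which limma called 0.0336% (FY against MY), 0.0504% (FA against MA), 0.176% (FO against MO) and 0.336% (mean of the ages) of kept probes. At an unadjusted p under 0.05 there were 3, 1, 2 and 3 of the 13, as for 6.97%, 6.55%, 9.68% and 10.3% of kept probes. Pcdhb3 was higher in females at every age by group mean, by 0.27, 0.19 and 0.28 on the log2 scale in young, adult and old mice. Averaged over age, it was 0.25 higher in females (interval 0.11 to 0.38, limma adjusted p = 0.12). Pcdhb12 was 0.19 lower in females (interval -0.33 to -0.05, limma adjusted p = 0.263). Males and females of the same age overlapped for all 13 probes, while they did not for 4.92% of kept probes in young, 5.13% in adult and 4.42% in old mice, and over all ages for 0.0672%.

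**Figure D4:**
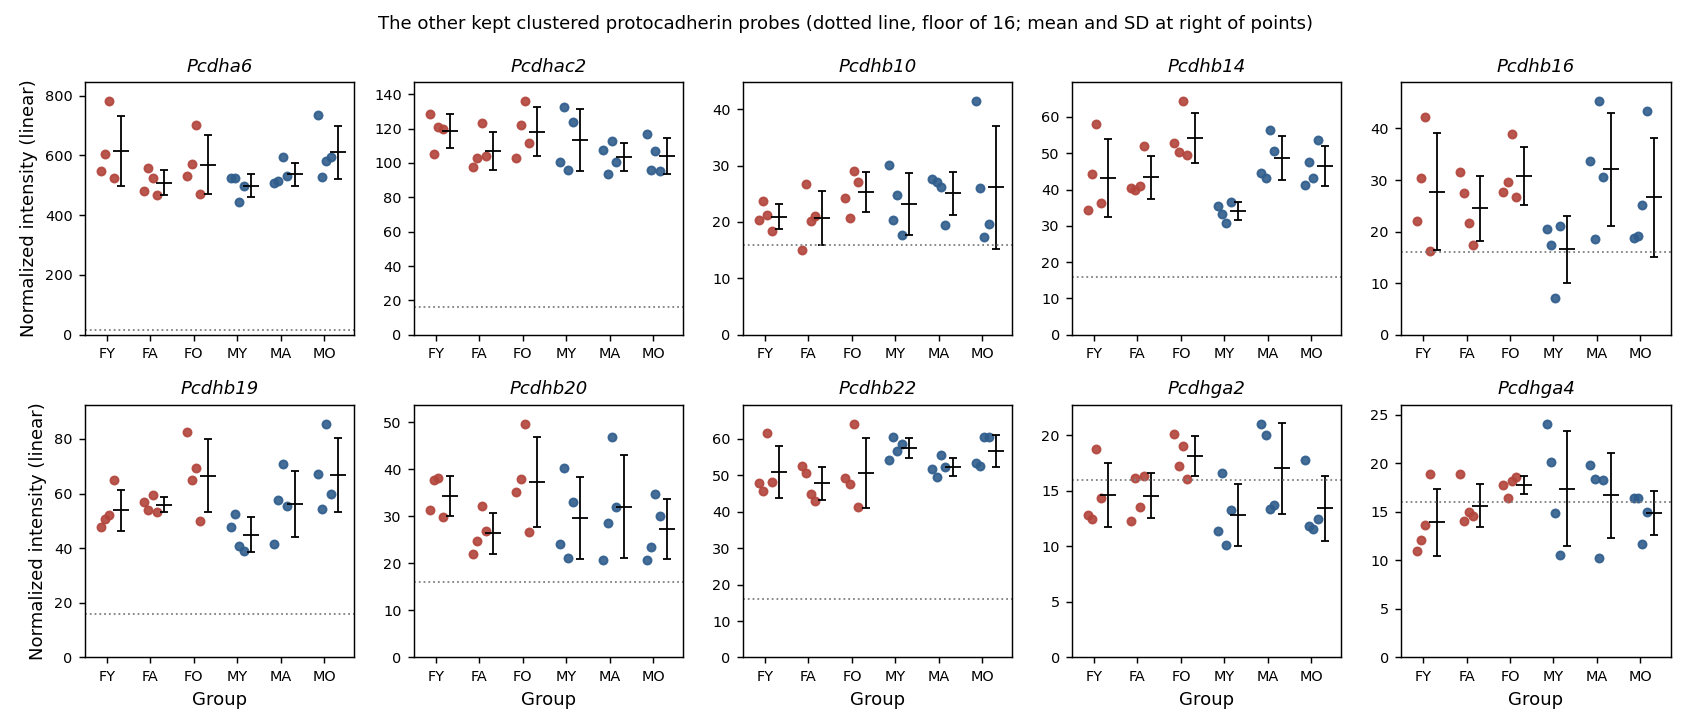
Normalized intensity (linear axes from 0, scaled per panel) of the other 10 kept protocadherin probes in each mouse, females in red and males in blue, with the group mean and SD beside the points (n = 4 per group) and the floor of 16 as a dotted line. The Pcdha6 and Pcdhac2 points lie far above the floor in every group, whereas Pcdhga2 and Pcdhga4 are at or below it in 13 and 11 of the 24 mice.

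The other 6 beta probes were dimmer, with means over the 24 arrays from 23.55 (Pcdhb10) to 57.4 (Pcdhb19). Pcdhb19 was 53.9 ± 7.48 in FY and 66.59 ± 13.5 in FO, and 44.97 ± 6.26 in MY and 66.72 ± 13.6 in MO. Pcdhb14 went from 43.23 ± 10.7 in FY to 54.31 ± 6.87 in FO. Further probes had wide spreads between mice of a group, pooled SDs on the log2 scale being 0.45 for Pcdhb16, 0.36 for Pcdhb20 and 0.33 for Pcdhb10, against 0.16 for Pcdhb3 and a median of 0.19 over all kept probes. Pcdhb16 varied from 16.14 to 42.25 in FY alone, and 1 MY array gave 7.16. Pcdhb22 ranged over group means of 47.8 to 57.46, with a pooled SD of 0.16.

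In the alpha cluster Pcdha6, the brightest protocadherin probe, measured an alternate isoform of the cluster or its shared end. Its intensities were 548.0, 605.3, 781.9 and 522.8 in FY, 480.6, 558.4, 525.3 and 467.6 in FA, and 531.4, 570.4, 702.9 and 471.5 in FO. Males gave 525.2, 526.0, 445.3 and 498.7 in MY, 508.1, 515.6, 593.2 and 530.0 in MA, and 735.1, 528.6, 581.2 and 596.2 in MO. The female groups overlapped at every age, while MO lay just above MY (528.6 against 526.0 at the nearest pair). The log2 fold change from young to old age was -0.11 in females and 0.28 in males (limma adjusted p = 0.989 and 0.381), and the difference between these was -0.39 (interval -0.75 to -0.03, limma adjusted p = 0.841). Pcdhac2, a C-type isoform of the alpha cluster, had group means of 103.6 to 118.5 and a change of -0.06 between old and young mice (interval -0.24 to 0.11), so that changes as large as those of Pcdhb3, Pcdhb7 and Pcdhb12 lay outside its interval.

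The 2 gamma probes were near the limit of the filter. Pcdhga4 gave 10.98, 12.13, 13.68 and 18.84 in FY, 18.9, 14.04, 14.94 and 14.6 in FA, and 17.8, 16.41, 18.14 and 18.54 in FO. In MY it was 24.06, 20.08, 14.83 and 10.54, in MA 19.85, 18.32, 10.27 and 18.28, and in MO 16.38, 16.44, 11.69 and 14.96. Only FO had all 4 mice above 16, and the spread within MY covered every other mouse except 1 MA mouse. Pcdhga2 also passed through FO alone, with its lowest FO array at 16.05 and 13 of 24 arrays at the floor. Its change between old and young mice was 0.07 (interval -0.10 to 0.24), a size that the floor compresses.

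The other 38 protocadherin probes did not pass. Of these, 27 were never above 16 in any array and 11 were in some arrays, and 22 had a mean intensity below 5. Nearest below the limit were Pcdhgb6, whose lowest array in FA was 15.14, Pcdha11 at 13.99 and Pcdhb8 at 13.68 (both FA), and Pcdhgc4 at 13.44 (MO). Just inside it were Pcdhga2 at 16.05, Pcdhga4 at 16.41 and Pcdhb10 at 20.77, all in FO. The unkept probes included 13 of the 22 beta genes (Pcdhb1, Pcdhb2, Pcdhb4, Pcdhb5, Pcdhb6, Pcdhb8, Pcdhb9, Pcdhb11, Pcdhb13, Pcdhb15, Pcdhb17, Pcdhb18 and Pcdhb21), the C-type isoforms Pcdhac1, Pcdhgc3, Pcdhgc4 and Pcdhgc5, and Pcdhgb8, which RefSeq lists as a pseudogene. These probes were left out of the tests, which does not show that the genes are not transcribed.

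Related genes were read in the comparison of old with young mice, mean of the sexes, in which 1.27% of kept probes were called. Of the non-clustered protocadherins, which lie outside these clusters and are not chosen in the same manner, 4 of 12 were kept (Pcdh1, Pcdh10, Pcdh17 and Pcdh20) and 0 were called, with a median log2 fold change of -0.13. The classical and type II cadherins, most of which join cells through catenins, had 7 of 18 kept, 0 called and a median of 0.10. CTCF, cohesin and the factors that load or release it had 9 of 14 kept, 0 called and a median of -0.06. Chromatin and DNA methylation regulators, among them Dnmt1, Dnmt3b and Smchd1, had 8 of 15 kept, 0 called and a median of -0.05.

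The partners gave no call either. Intracellular partners, such as the kinase Ptk2b and the WAVE complex subunits Wasf1, Cyfip2 and Nckap1, had 10 of 14 kept, 0 called and a median of -0.05. Membrane proteins that bind protocadherins or share their role at synapses, such as Nlgn1 and Dscam, had 4 of 8 kept, 0 called and a median of -0.08. Subunits of gamma-secretase and the other proteases that cleave protocadherins had 5 of 7 kept, 0 called and a median of 0.00. The median over all kept probes was -0.02.

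Markers of the cell types were read beside the protocadherins. Between old and young mice the pan-neuronal markers had a median log2 fold change of 0.02, with 0 of 5 called. Summed over all 8 of these markers with a probe, kept or not, intensities ran from 16490 to 19560 over the 24 arrays. The excitatory hippocampal markers had a median of 0.04 (0 of 4 called), interneuron markers 0.18 (0 of 4), cortical pyramidal markers 0.21 (0 of 4), astrocyte markers 0.00 (0 of 6), oligodendrocyte markers 0.27 (0 of 5) and endothelial markers 0.00 (0 of 3). Single genes could lie far from these medians. The astrocyte markers ranged from -0.06 to 0.89, and the excitatory hippocampal markers from -0.33 to 0.195. Microglial markers were called higher in old mice for 3 of 5 genes, namely C1qa by 0.73, Aif1 by 0.56 and Tmem119 by 0.48 (limma adjusted p = 4.97e-05, 0.00363 and 0.0202). The lowest of the 5 stood at -0.004. Within the sexes, limma called these 3 between FO and FY (median of the 5 markers 0.78, from -0.25 to 1.14). Between MO and MY it called 0 of 5 (median 0.24). The summed intensity of the microglial markers was 568.1 to 681.8 in FY and 820.8 to 1070 in FO, and 556.8 to 678.0 in MY and 640.0 to 798.4 in MO. Of the oligodendrocyte precursor markers 1 of 3 was lower, Gpr17 by -0.72 (limma adjusted p = 0.000418). Within the sexes, Gpr17 was called between MO and MY (-1.055, limma adjusted p = 0.00169). Between FO and FY 0 of the 3 precursor markers were called. The part of these cell types in the protocadherin result was not tested.

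Markers of tissues that border the hippocampus varied between mice, and the source of this variation was not tested. Choroid plexus markers were kept for 5 of 10 genes and had a median of -1.70 between old and young mice, with 0 called. Summed over the 7 with a probe, kept or not, their intensity ranged from 1786 to 18380 in FY, 1642 to 20960 in FA and 2805 to 9987 in FO. In males the range was 2597 to 17470 in MY, 1019 to 14110 in MA and 780.6 to 17450 in MO. The ranges of these sums overlapped between all 6 groups. Leptomeningeal markers had a median of -0.83, with 0 of 3 called. Summed over the 5 with a probe, kept or not, their intensity was 2932 to 5487 in FY, 1682 to 6902 in FA and 1926 to 2287 in FO, so that FO lay wholly below FY. In males it was 1821 to 5362 in MY, 1567 to 4013 in MA and 1299 to 2801 in MO, where the groups overlapped. The part of these tissues in the result was not tested.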

How the data were processed

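Hippocampal RNA of 24 mice was hybridised to Illumina Mouse Ref8 arrays, 1 per mouse. The deposited intensity values were made by the authors in GenomeStudio 2011.1 with average normalization and background subtraction, without a log transform, and 22.4% were below 0. A second, non-normalized table, with 48 columns for 24 array positions, pairs with no sample and was not used, so that detection p-values and slides were not used here. Genes were named from the platform annotation: 23978 probes had 1 symbol, 0 had several and 1719 had none. Values were floored at 16, log2 transformed and fitted with limma 3.58.1 (R 4.3.3; 1 model of 6 groups, trended prior variance), and p-values were adjusted by Benjamini-Hochberg over 11901 probes in each of 15 comparisons. A probe called had an adjusted p under 0.05. The number of arrays limits the precision. On simulated data for FO against FY, with 11901 probes per run, 71.2% of 1.5-fold and 37.6% of 1.3-fold changes were recovered. These changes were placed in brighter probes only. That range of intensity holds Pcdhb3, Pcdhb7, Pcdhb12 and the kept alpha probes, but none of the other kept protocadherin probes. For those dimmer probes the recovery was not simulated. The simulation set the number of changed probes and drew its noise independently for each probe and array. Recovery in the data may therefore be lower.

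Values are given for every member called and for the brightest kept probe of each cluster in every mouse, others by range. The members and all gene lists were chosen with earlier results of these data known. Alternatives were floors of 8 and 32, no filter, quantile normalization, no trend, the compared groups alone, a replicate block, arrays left out, and the methods' test (ANOVA by age and sex, then the post hoc test named there over the 6 group means, and a fold of 1.2, with no adjustment across probes). The labels state no pairing of mice by replicate number, and the main fit used none.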

Additional observations from a re-analysis of the deposited data

Results flagged for a closer look

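In 6 of 78 sets of 4 arrays (13 kept probes in 6 groups), the highest or the lowest measured intensity stood far from the other 3 by Dixon's test, where chance gives about 1 in 20. Among beta probes, Pcdhb12 was 87.41 in MO replicate 1 and 99.75 to 100.1 in the other MO mice. Pcdhb10 was 19.49 in MA replicate 4, with the other MA mice at 26.19 to 27.53. Pcdhb14 was 52.12 in FA replicate 4, above the 39.9 to 40.97 of the other FA mice, and Pcdhb22 was 61.54 in FY replicate 3, above 45.68 to 48.32.

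The gamma probes gave the other 2, at values near the floor of 16. Pcdhga2 was 17.74 in MO replicate 1 and 11.55 to 12.48 in the other MO mice, and Pcdhga4 was 10.27 in MA replicate 3 and 18.28 to 19.85 in the other MA mice.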

How the results depend on the processing

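With single arrays left out in turn, the number of protocadherin probes called ranged from 1 to 2 between FO and FY, 1 to 3 between MO and MY, 3 to 4 between old and young mice (mean of the sexes), 1 to 1 between adult and young mice and 0 to 1 between old and adult mice, and it was 0 throughout in the other 10 comparisons. The number over all kept probes ranged from 56 to 93 between FO and FY and from 6 to 29 between MO and MY. It was 121 to 207 for old against young mice, 1 to 2 for adult against young and 25 to 46 for old against adult. Pcdhb3 kept its call between old and young mice under each of the 8 other settings (log2 fold change 0.86 to 0.89) and between adult and young mice (adjusted p in limma 0.00331 to 0.035, and 0.011 to 0.0477 with arrays left out). Between FO and FY the number of protocadherin probes called was 2 with no trend, 2 without MO replicates 1 and 3, and 3 by the methods' test. Over all kept probes the number was 99, 100 and 205, beside 85 in the main fit. Between MO and MY 0 protocadherin probes were called with the compared groups alone, 1 without MO replicates 1 and 3 (Pcdhb12 then at an adjusted p of 0.0821 in limma), and 5 by the methods' test. Over all kept probes the number was 1, 8 and 253, beside 12 in the main fit. Quantile normalization called 5 protocadherin probes between old and young mice, where Pcdhb14 (adjusted p in limma 0.022) and Pcdhb19 (0.044) joined, and 169 of all kept probes, beside 151 in the main fit. Between old and adult mice, where 20 to 39 probes were called in all, the number of protocadherin probes called was 0 under a floor of 32, no filter, quantile normalization, the compared groups alone, without MO replicates 1 and 3, and with the replicate block (Pcdhb7, adjusted p in limma 0.0699). The methods' test called 1 between FA and FY, 3 between FO and FA, 3 between MA and MY, 2 between MO and MA, 1 between FY and MY, 1 between FA and MA and 2 between FO and MO, with 0.311% to 2.48% of kept probes called in its 9 comparisons. The cause of these shifts was not tested.

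The sign of 3 changes near 0 between old and young mice turned: Pcdhb20 (-0.01) was 0.033 under a floor of 32, 0.022 under quantile normalization and -0.081 to 0.076 with arrays left out, Pcdhb22 (-0.02) was 0.012 under quantile normalization and -0.079 to 0.029 with arrays left out, and Pcdhga4 (-0.06) was 0.104 under a floor of 8. Same-numbered arrays correlated at r of -0.447 to 0.555 in their deviations from group means, above 0.1 in 19 of 60 pairs, and 5 of 24 arrays correlated best with their own number. Between FY and FO these r were 0.151, 0.196, 0.555 and 0.306. Between MY and MO they were -0.333, -0.186, -0.155 and -0.109. The replicate block changed no other number of called protocadherin probes (1 between FO and FY, 2 between MO and MY, 3 between old and young mice). The floor compresses changes of the gamma probes, and 38 of 51 probes did not pass the filter.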
